A study of Mus musculus with 10 samples.

Results

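The genes described here are 38 genes of skeletal muscle, chosen by symbol for what they encode: sarcomere proteins of fast and slow fibers, calcium handling proteins, an energy and an oxygen-binding protein, and the myogenic transcription factors. All 38 were present among the 16895 genes of the files. They were measured by RNA-seq of total RNA, with a stranded library kit that selects mRNA, in meningioma-like tumors of the mouse. The tumors grew after injection into the subarachnoid space of newborn mice of DF1 cells, a chicken fibroblast line that produces the RCAS virus, so the tumors start from mouse cells that carry tv-a, the receptor of that virus. The Nestin promoter drives tv-a, and all mice of both groups were null for Cdkn2a, a gene of cell cycle inhibitors.

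The virus carried NLS-2SA-YAP1, a constitutively active form of the Hippo pathway coactivator YAP1 per the series title (n = 3), or YAP1-MAML2-v2, a fusion of YAP1 with the coactivator MAML2 (n = 7). No further treatment was given to either group. Tumors carry the replicate numbers of the labels, which call NLS-2SA-YAP1 tumor 1 extra axial and NLS-2SA-YAP1 tumors 2 and 3 extra cranial. YAP1-MAML2-v2 tumors 2 and 6 are extra axial, tumors 1, 3, 4 and 5 extra cranial, and tumor 7 intra ventricular. No normal muscle, normal meninges or tumor-free tissue was analysed here. The labels do not say that each library came from a separate animal, so p-values measure only the spread between these libraries.

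The deposited values are whole numbers, with totals between 28001143 and 44544314 per library. Genes at 1 outnumber genes at 2 by 4.54 to 6.82 times within a library, so the values were treated as estimated counts, and the depth behind them is unknown. Of the 38 genes, 26 are listed at 0 or 1 in some library, and 16 of these also exceed 100 in another library. No fold change is given for a single gene listed at 0 or 1, because its size would depend on those values. Medians over the tested members include such genes, so their size depends on those values too. Levels are given as CPM, the deposited values scaled to a common library total with TMM factors, and per kilobase of exon where genes are compared with each other.

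Skeletal muscle fibers contract when calcium, released through the ryanodine receptor RYR1, binds troponin on the thin filament, and most sarcomere proteins have separate fast fiber and slow fiber genes. Troponin has 3 subunits, encoded by TNNT3, TNNI2 and TNNC2 in fast fibers and by TNNT1, TNNI1 and TNNC1 in slow fibers. MYF5, MYOD1, MYOG and MYF6 are basic helix-loop-helix factors that bind E-boxes, and PAX7 marks satellite cells, the stem cells of adult muscle. TEAD factors, through which YAP1 acts on DNA, bind the MCAT element that many muscle promoters hold.

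The promoters of 4 members are shown because they stand for both patterns described further on. Acta1 (skeletal muscle actin) and Ttn (titin) were highest in the same 3 tumors as most members, whereas Tnnc1 (slow troponin C) and Myh3 (embryonic myosin heavy chain) were not. Each sequence is the 250 bases before the gene's start in RefSeq on GRCm38.p6, written 5′ to 3′ on the gene's strand. Capitals mark E-boxes (CANNTG) and the MCAT core (CATTCC, or GGAATG when it lies on the other strand). The windows are chr8:123894776-123895025 on the minus strand for Acta1, chr2:76982548-76982797 on the minus strand for Ttn, chr14:31208062-31208311 on the plus strand for Tnnc1 and chr11:67078050-67078299 on the plus strand for Myh3.
Acta1: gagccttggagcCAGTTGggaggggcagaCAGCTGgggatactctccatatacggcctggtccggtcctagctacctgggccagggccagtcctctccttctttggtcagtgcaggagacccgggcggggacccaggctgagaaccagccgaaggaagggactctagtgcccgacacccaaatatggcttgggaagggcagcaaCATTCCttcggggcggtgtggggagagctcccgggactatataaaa
Ttn: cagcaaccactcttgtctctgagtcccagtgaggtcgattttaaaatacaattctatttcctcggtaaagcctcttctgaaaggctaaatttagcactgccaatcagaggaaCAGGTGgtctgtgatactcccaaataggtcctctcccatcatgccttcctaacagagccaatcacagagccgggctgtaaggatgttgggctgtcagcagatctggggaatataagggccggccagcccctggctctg
Tnnc1: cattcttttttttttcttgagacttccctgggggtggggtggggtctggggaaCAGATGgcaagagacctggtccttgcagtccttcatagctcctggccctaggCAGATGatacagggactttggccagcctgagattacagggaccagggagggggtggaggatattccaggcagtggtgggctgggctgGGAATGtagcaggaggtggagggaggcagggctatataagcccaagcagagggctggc
Myh3: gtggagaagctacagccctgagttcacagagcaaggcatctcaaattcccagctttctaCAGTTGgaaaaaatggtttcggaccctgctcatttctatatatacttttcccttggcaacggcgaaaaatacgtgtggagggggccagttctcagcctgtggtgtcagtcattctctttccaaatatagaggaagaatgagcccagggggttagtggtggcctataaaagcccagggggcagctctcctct

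RefSeq promoters were matched for 30 of the 38 members. Within the same 250 bases, on either strand, CANNTG was present in 23 of these 30 (76.7%) and in 66% of all 27025 promoters. The E-box CAGCTG, one of the forms of CANNTG, was present in 12 of 30 (40%) and in 12.8% of all promoters. CATTCC was present in 8 of 30 (26.7%), against 12.6% of all, and the MEF2 motif in 5 of 30 (16.7%), against 3.01% of all. A match is a description of letters and not a bound site. CATTCC was present in 5 of 22 matched members that had the 3 tumors named next on top and in 3 of the other 8, and the MEF2 motif in 5 of 22 and in 0 of 8.

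Most of the 38 genes were high in the same 3 tumors. NLS-2SA-YAP1 tumors 2 and 3 and YAP1-MAML2-v2 tumor 3 were the 3 highest libraries for 29 of the 38 members, and for 23 of the 29 members that passed the filter on low values. Over all 13707 genes that passed the filter, the same 3 libraries were the highest for 131, or 0.956%, and over all 16895 genes without the filter for 174, or 1.03%. In each of these 3 libraries 15 of the 29 tested members were over 4 times the highest of the other 7, which held for 0.27% of all tested genes. Some members passed the filter only through these tumors. The grouping and the fold were also set after the values were seen, so this is a description with no test. All 3 of these tumors are extra cranial, and 3 of the 6 extra cranial tumors are not among them. The median CPM over the 38 members was 3.07 in NLS-2SA-YAP1 tumor 2, 7.85 in NLS-2SA-YAP1 tumor 3 and 2.73 in YAP1-MAML2-v2 tumor 3. It was between 0.0298 and 0.213 in the other 7 tumors, which include NLS-2SA-YAP1 tumor 1 at 0.12. In bulk tumor RNA, fewer cells of a type and less RNA per cell cannot be told apart.

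NLS-2SA-YAP1 tumor 3 held the highest value of 29 members. It exceeded NLS-2SA-YAP1 tumor 2 for 28 of the 29 genes with the common pattern, all except TNNT1, and it exceeded YAP1-MAML2-v2 tumor 3 for 27 of them. NLS-2SA-YAP1 tumor 2 exceeded YAP1-MAML2-v2 tumor 3 for 17 of the 29, so these tumors had no fixed order between them. For 22 of the 29 genes none of the other 7 tumors reached 1 CPM. The common pattern covered 11 of 11 fast fiber genes, 2 of 5 slow fiber genes, 1 of 2 developmental myosins, 6 of 8 shared sarcomere and cytoskeleton genes, 4 of 5 calcium handling genes, both the energy and the oxygen gene, and 3 of 5 myogenic transcription factors. Among the factors MYOG counts only through library scaling, since its value of 1 in NLS-2SA-YAP1 tumor 2 is tied in the files with 1 in YAP1-MAML2-v2 tumors 4 and 7.

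**Figure D1:**
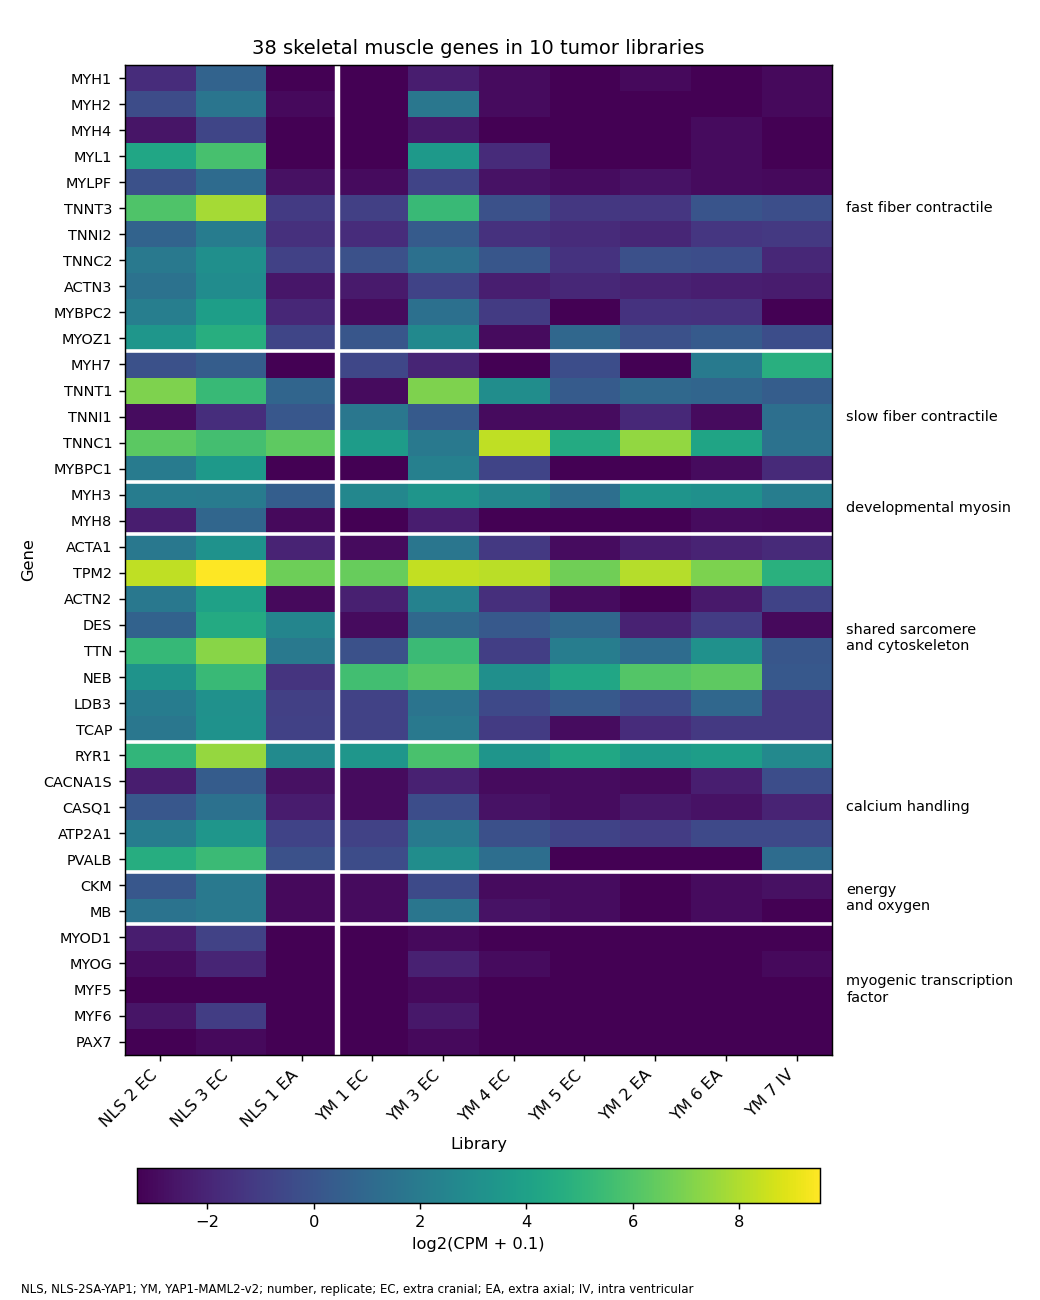
Expression of the 38 skeletal muscle genes (rows, grouped by role) in the 10 tumor libraries (columns), as log2(CPM + 0.1), with a white line between NLS-2SA-YAP1 and YAP1-MAML2-v2 libraries. NLS-2SA-YAP1 tumors 2 and 3 and YAP1-MAML2-v2 tumor 3 are the brightest columns for 29 of the 38 genes, while TNNC1, NEB and MYH3 are also bright elsewhere.

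All 11 fast fiber genes followed the common pattern. Of these, MYH1 and MYH4 did not pass the filter on low values. In the files they are at 4 and 3 in YAP1-MAML2-v2 tumor 3, against at most 1 outside the 3 tumors of the pattern. TNNT3, the troponin T that ties fast troponin to tropomyosin, had 62.1, 222 and 0.359 CPM in NLS-2SA-YAP1 tumors 2, 3 and 1, against a lowest value of 0.315, a median of 0.734 and a highest of 42.0 CPM in YAP1-MAML2-v2 tumors. The highest YAP1-MAML2-v2 value was that of tumor 3, and the groups overlap because NLS-2SA-YAP1 tumor 1 lies among the low tumors. MYL1, an essential light chain of fast myosin, had 19.2 and 54.1 CPM in NLS-2SA-YAP1 tumors 2 and 3 and was listed at 0 in tumor 1, against 12.1 CPM in YAP1-MAML2-v2 tumor 3 and a median of 0 in the YAP1-MAML2-v2 group. It was listed at 0 in 4 of the 7 YAP1-MAML2-v2 tumors, so it was close to present or absent across the series. MYOZ1, a Z-disc protein of fast fibers that binds calcineurin, had 10.6, 26.4 and 0.55 CPM in NLS-2SA-YAP1 tumors 2, 3 and 1, against 0.0284 (lowest), 0.982 (median) and 6.68 CPM (highest) in YAP1-MAML2-v2 tumors. Here too tumor 3 was the highest YAP1-MAML2-v2 tumor and the groups overlapped.

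The other fast fiber genes were lower and had the same 3 tumors on top. ACTN3, the fast fiber alpha-actinin, had 2.8, 7.51 and 0.0718 CPM in NLS-2SA-YAP1 tumors 2, 3 and 1, against 0.0893 (lowest), 0.113 (median) and 0.506 CPM (highest) in YAP1-MAML2-v2 tumors. YAP1-MAML2-v2 tumor 3 was again the highest of its group, yet it lay further below the high NLS-2SA-YAP1 tumors than it did for TNNT3. The adult fast myosin heavy chains MYH1, MYH2 and MYH4 were at most 3.32 CPM in any tumor, that of MYH2 in YAP1-MAML2-v2 tumor 3. Their coding sequences are similar to each other and to those of MYH3 and MYH8 in the same cluster on chromosome 11. Reads may therefore have been split or lost between them, and their levels are uncertain.

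The slow fiber genes did not share a pattern. TNNT1, the slow troponin T, had 130, 39.8 and 1.75 CPM in NLS-2SA-YAP1 tumors 2, 3 and 1, against 0.0298 (lowest), 1.71 (median) and 132 CPM (highest) in YAP1-MAML2-v2 tumors. It followed the common pattern, with YAP1-MAML2-v2 tumor 3 and NLS-2SA-YAP1 tumor 2 at nearly the same level. TNNC1, the troponin C of slow fibers and of the heart, had 78.8, 51.7 and 79.2 CPM in NLS-2SA-YAP1 tumors 2, 3 and 1, against 2.75 (lowest), 18.2 (median) and 312 CPM (highest) in YAP1-MAML2-v2 tumors. Its highest tumors were YAP1-MAML2-v2 tumors 4 and 2 (312 and 175 CPM), and YAP1-MAML2-v2 tumor 3, high for most members, had only 3.54 CPM. The groups overlapped fully, and TNNC1 was high in NLS-2SA-YAP1 tumor 1, where 10 of the 38 members are listed at 0.

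MYH7 and TNNI1, both slow fiber genes, followed patterns of their own. MYH7, the slow and cardiac myosin heavy chain, had 0.82 and 1.26 CPM in NLS-2SA-YAP1 tumors 2 and 3 and was listed at 0 in tumor 1, against 0 (lowest), 0.565 (median) and 27.0 CPM (highest) in YAP1-MAML2-v2 tumors. The highest value was in the intra ventricular tumor, and the next was 3.68 CPM in YAP1-MAML2-v2 tumor 6. TNNI1, the slow troponin I, had 0.0342, 0.226 and 1.03 CPM in NLS-2SA-YAP1 tumors 2, 3 and 1, against 0.0281 (lowest), 0.183 (median) and 3.3 CPM (highest, in tumor 1) in YAP1-MAML2-v2 tumors. MYBPC1, the slow myosin binding protein C, did follow the common pattern, with 3.96 and 11.8 CPM in NLS-2SA-YAP1 tumors 2 and 3 and 4.78 CPM in YAP1-MAML2-v2 tumor 3.

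Troponin subunits were compared per kilobase of exon. In NLS-2SA-YAP1 tumor 2 slow TNNT1 had 59.0 and fast TNNT3 39.3 CPM per kilobase, a ratio of 1.5. In NLS-2SA-YAP1 tumor 3 the ratio was 0.129, and in YAP1-MAML2-v2 tumor 3 it was 2.25. Slow troponin T was thus above fast troponin T in a pair of the 3 tumors and below it in the tumor with the highest muscle levels. For troponin I the slow over fast ratio was 0.0225 in NLS-2SA-YAP1 tumor 3 and 0.399 in YAP1-MAML2-v2 tumor 3, and slow TNNI1 is listed at 1 in NLS-2SA-YAP1 tumor 2, so the fast gene led in all 3. For troponin C it was 17.0 and 4.85 in NLS-2SA-YAP1 tumors 2 and 3, with the slow gene ahead. In YAP1-MAML2-v2 tumor 3 it was 1.08, so the pair was nearly level. The RNA values of the 3 fast troponin genes were also unequal: in NLS-2SA-YAP1 tumor 3 TNNT3, TNNC2 and TNNI2 had 140.0, 10.2 and 2.79 CPM per kilobase. Protein amounts were not measured.

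**Figure D2:**
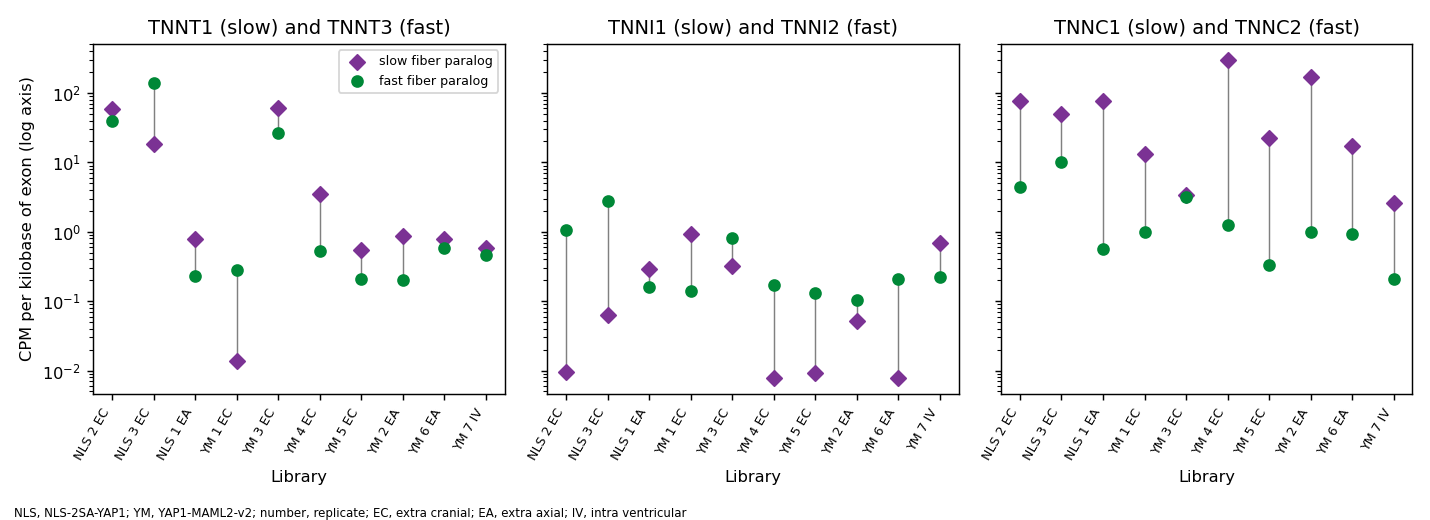
Slow fiber (diamonds) and fast fiber (circles) paralogs of troponin T, I and C in each tumor library, as CPM per kilobase of exon on a log axis, with a grey line joining the pair in a library. TNNT3 is at 26.6 CPM per kilobase or more only in NLS-2SA-YAP1 tumors 2 and 3 and YAP1-MAML2-v2 tumor 3. TNNC1 lies above TNNC2 in all 10 libraries, though the pair is nearly level in YAP1-MAML2-v2 tumor 3.

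The developmental myosins differed from each other. MYH3, the embryonic myosin heavy chain, had 4.07, 3.97 and 1.34 CPM in NLS-2SA-YAP1 tumors 2, 3 and 1, against 2.44 (lowest), 6.07 (median) and 10.4 CPM (highest) in YAP1-MAML2-v2 tumors. It was above 1 CPM in every tumor and the groups overlapped: of the YAP1-MAML2-v2 tumors only tumor 5, at the lowest value, lay below NLS-2SA-YAP1 tumors 2 and 3. MYH8, the perinatal myosin heavy chain, was at most 1.81 CPM, in NLS-2SA-YAP1 tumor 3, and followed the common pattern.

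The shared sarcomere genes split between the common pattern and a wider presence. TPM2, a beta-tropomyosin that smooth muscle and fibroblasts also make, had 316, 733 and 103 CPM in NLS-2SA-YAP1 tumors 2, 3 and 1, against 28.8 (lowest), 126 (median) and 325 CPM (highest) in YAP1-MAML2-v2 tumors. Its 3 highest tumors were still those of the common pattern, but by a narrow gap. YAP1-MAML2-v2 tumors 4 and 2 had 295 and 276 CPM, close to NLS-2SA-YAP1 tumor 2. TTN, the giant titin spring that spans the sarcomere from Z-disc to M-line, had 39, 153 and 3.54 CPM in NLS-2SA-YAP1 tumors 2, 3 and 1, against 0.425 (lowest), 2.2 (median) and 43.4 CPM (highest) in YAP1-MAML2-v2 tumors. YAP1-MAML2-v2 tumor 6 came next after the high tumors at 8.91 CPM, and the groups overlapped. ACTA1, the actin of skeletal muscle thin filaments, was lower than these, with 3.48 and 9.35 CPM in NLS-2SA-YAP1 tumors 2 and 3 and 3.14 CPM in YAP1-MAML2-v2 tumor 3, and at most 0.34 CPM elsewhere.

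NEB and DES were the shared sarcomere genes outside the common pattern. NEB, nebulin, which lines the thin filament, had 9.7, 40.9 and 0.287 CPM in NLS-2SA-YAP1 tumors 2, 3 and 1, against 1.07 (lowest), 50.2 (median) and 79.6 CPM (highest) in YAP1-MAML2-v2 tumors. YAP1-MAML2-v2 tumors 6, 3, 2 and 1, in that order, exceeded every NLS-2SA-YAP1 tumor, while YAP1-MAML2-v2 tumors 4, 5 and 7 did not. DES, desmin, the intermediate filament of all muscle types, had 1.54, 22.6 and 5.58 CPM in NLS-2SA-YAP1 tumors 2, 3 and 1, against 0.0237 (lowest), 0.393 (median) and 1.95 CPM (highest) in YAP1-MAML2-v2 tumors. It was the only member for which NLS-2SA-YAP1 tumor 1 lay above all 7 YAP1-MAML2-v2 tumors, and the groups overlapped only through NLS-2SA-YAP1 tumor 2.

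**Figure D3:**
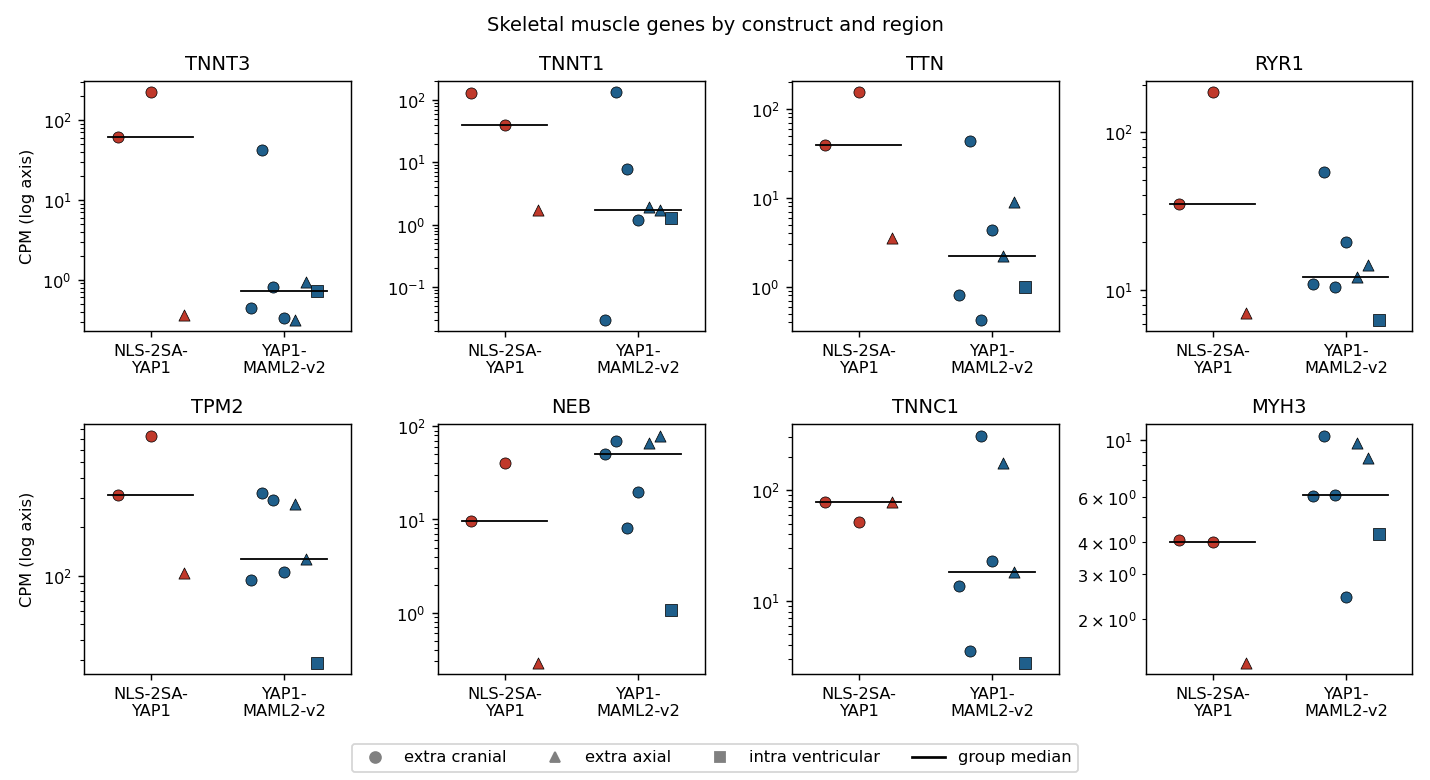
CPM of 8 members in each tumor on log axes, NLS-2SA-YAP1 tumors at the left of each panel and YAP1-MAML2-v2 tumors at the right, with symbols for the labelled region and a line at the group median. TNNT3, TNNT1, TTN and RYR1 have the same 3 extra cranial tumors on top, while NEB, TNNC1 and MYH3 have other tumors on top.

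Calcium handling genes mostly followed the common pattern. RYR1, the calcium release channel of the sarcoplasmic reticulum, had 35.1, 179 and 7.06 CPM in NLS-2SA-YAP1 tumors 2, 3 and 1, against 6.42 (lowest), 12 (median) and 56.1 CPM (highest) in YAP1-MAML2-v2 tumors. It stayed above 6 CPM in every tumor, so the gap between the high tumors and the rest was smaller than for TNNT3. PVALB, parvalbumin, a calcium buffer of fast fibers and of some neurons, had 25.4, 43.5 and 0.814 CPM in NLS-2SA-YAP1 tumors 2, 3 and 1, against 0 (lowest), 0.684 (median) and 7.64 CPM (highest) in YAP1-MAML2-v2 tumors. ATP2A1, the pump that returns calcium to the sarcoplasmic reticulum of fast fibers, had 4.1, 10.8 and 0.503 CPM in NLS-2SA-YAP1 tumors 2, 3 and 1, against 0.393 (lowest), 0.616 (median) and 3.82 CPM (highest) in YAP1-MAML2-v2 tumors. For both genes YAP1-MAML2-v2 tumor 3 was the highest of its group, and NLS-2SA-YAP1 tumor 1 lay within the range of the other YAP1-MAML2-v2 tumors. CACNA1S, the voltage sensor that opens RYR1, was the exception: after NLS-2SA-YAP1 tumor 3 (1.23 CPM) its highest value was 0.71 CPM in the intra ventricular tumor.

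The energy and oxygen genes were low and close to present or absent. CKM, muscle creatine kinase, had 1.02, 3.57 and 0.0239 CPM in NLS-2SA-YAP1 tumors 2, 3 and 1, against 0 (lowest), 0.0298 (median) and 0.633 CPM (highest) in YAP1-MAML2-v2 tumors. MB, myoglobin, had 2.87, 3.54 and 0.0239 CPM in NLS-2SA-YAP1 tumors 2, 3 and 1, against 0 (lowest), 0.0298 (median) and 3.16 CPM (highest) in YAP1-MAML2-v2 tumors. The highest YAP1-MAML2-v2 value of each was that of tumor 3, and 5 of the 7 YAP1-MAML2-v2 tumors are listed at 0 or 1 for each gene.

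The myogenic transcription factors were near 0 throughout, and none of the 5 passed the filter on low values. MYOD1, which commits cells to muscle, had 0.102 and 0.477 CPM in NLS-2SA-YAP1 tumors 2 and 3, 0.0253 CPM in YAP1-MAML2-v2 tumor 3, and was listed at 0 in the other 7 tumors. MYF6, the factor that prevails in adult fibers, had 0.0683 and 0.402 CPM in NLS-2SA-YAP1 tumors 2 and 3, 0.0759 CPM in YAP1-MAML2-v2 tumor 3, and was listed at 0 in the other 7. MYOG, which drives terminal differentiation, had 0.0342 and 0.151 CPM in NLS-2SA-YAP1 tumors 2 and 3, against 0.127 CPM in YAP1-MAML2-v2 tumor 3 and at most 0.0284 CPM in the other YAP1-MAML2-v2 tumors. MYOD1 and MYF6 were thus above 0 only in the 3 tumors with high sarcomere genes, on values of 1 to 19 in the files. MYF5, of early myoblasts, was listed at 0 in all tumors but YAP1-MAML2-v2 tumor 3 (0.0253 CPM). PAX7 was listed at 0 in all but NLS-2SA-YAP1 tumor 3 (0.0251 CPM) and YAP1-MAML2-v2 tumor 3 (0.0253 CPM).

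Other muscle genes and the markers of other tissues were read beside the 38. Of 54 further skeletal muscle genes, 31 had the same 3 tumors on top, and the median CPM of this list was 2.0 and 7.87 in NLS-2SA-YAP1 tumors 2 and 3 and 2.73 in YAP1-MAML2-v2 tumor 3, against at most 0.521 elsewhere. XIRP2, an actin-binding protein of muscle, had 20.5 and 93.4 CPM in NLS-2SA-YAP1 tumors 2 and 3, 21.9 CPM in YAP1-MAML2-v2 tumor 3 and at most 0.255 CPM in the other tumors. It was named after its values were seen. Of the 41 further muscle genes tested with edgeR, 38 had a fitted difference above 0 between NLS-2SA-YAP1 and YAP1-MAML2-v2 tumors and 36 had one below 0 between extra axial and extra cranial tumors. Genes near 0 elsewhere could pass the filter on low values through the 3 high tumors, so these counts are a description. Of these genes 0 passed an adjusted p of 0.05 in either comparison (lowest 0.296 between constructs and 1.0 between regions). Of 17 genes of myoblast fusion, satellite cells and the neuromuscular junction 2 had the pattern, the acetylcholine receptor subunits CHRNA1 and CHRNG. CHRNG has it only by library scaling, since its value in the files is 1 both in YAP1-MAML2-v2 tumor 3 and in YAP1-MAML2-v2 tumor 7. Of 10 cardiac, 14 smooth muscle and pericyte, 8 adipocyte, 9 keratinocyte, 10 bone and cartilage and 10 neuron genes 0 had it, and of 10 meningeal fibroblast genes 1 had it, COL1A1.

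The genes of the cardiac list did not move together. Their summed CPM was 3.59 to 202 in NLS-2SA-YAP1 tumors and 10.7 to 480 in YAP1-MAML2-v2 tumors, most of it from TNNT2 in 7 of the 10. TNNT2, the cardiac troponin T, had 201, 66.5 and 1.36 CPM in NLS-2SA-YAP1 tumors 2, 3 and 1, against 3.15 (lowest), 87.1 (median) and 479 CPM (highest) in YAP1-MAML2-v2 tumors. Its highest tumors were YAP1-MAML2-v2 tumors 2 and 4, which were also the highest for TNNC1. MYL7, NPPA and NKX2-5, defining markers of heart muscle, were at most 0.202 CPM in any tumor, and MYH6 at most 0.758 CPM. RYR2, the calcium release channel of the heart and of neurons, had 0, 0.176 and 0.407 CPM in NLS-2SA-YAP1 tumors 2, 3 and 1, against 0.43 (lowest), 4.78 (median) and 22.7 CPM (highest, in the intra ventricular tumor) in YAP1-MAML2-v2 tumors. The groups did not overlap for RYR2, by a narrow gap to YAP1-MAML2-v2 tumor 3, and 6.73% of all tested genes also separate the constructs without overlap. TNNI3, the cardiac troponin I, and MYBPC3, the cardiac myosin binding protein C, were at most 1.91 and 1.02 CPM. RYR2, TNNI3 and MYBPC3 were named after their values were seen. The part of heart tissue in the muscle values was not tested.

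Smooth muscle and pericyte genes were present in every tumor. The smooth muscle and pericyte list had a median CPM of 62.1, 85.1 and 32.2 in NLS-2SA-YAP1 tumors 2, 3 and 1, against 31.8 to 111 in YAP1-MAML2-v2 tumors.

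The median of the adipocyte list was highest in the NLS-2SA-YAP1 pair of the 3 tumors and near 0 in YAP1-MAML2-v2 tumor 3. It was 3.64 and 2.48 in NLS-2SA-YAP1 tumors 2 and 3, 0.0239 in NLS-2SA-YAP1 tumor 1, 0.0127 in YAP1-MAML2-v2 tumor 3 and at most 0.511 in the other YAP1-MAML2-v2 tumors. CFD, the complement factor adipsin made by fat cells, had 46.3 and 38 CPM in NLS-2SA-YAP1 tumors 2 and 3 and was listed at 0 in YAP1-MAML2-v2 tumor 3, while YAP1-MAML2-v2 tumor 2 had 8.94 CPM. LPL and FABP4, a lipase and a fatty acid binding protein that other cells make too, were spread more widely. LPL had 15.5, 23.2 and 3.81 CPM in NLS-2SA-YAP1 tumors 2, 3 and 1, against 5.11 (lowest), 27.9 (median) and 138 CPM (highest) in YAP1-MAML2-v2 tumors, of which tumor 3 had 15.7. FABP4 had 11.6 and 9.88 CPM in NLS-2SA-YAP1 tumors 2 and 3, against 9.38 CPM in YAP1-MAML2-v2 tumor 2 and 2.1 CPM in YAP1-MAML2-v2 tumor 3. CFD, LPL and FABP4 were named after their values were seen. The summed CPM of the adipocyte list was 4.95 to 81.7 in NLS-2SA-YAP1 tumors and 5.66 to 140.0 in YAP1-MAML2-v2 tumors, the highest sum being almost all LPL. The part of fat tissue in the muscle values was not tested.

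**Figure D4:**
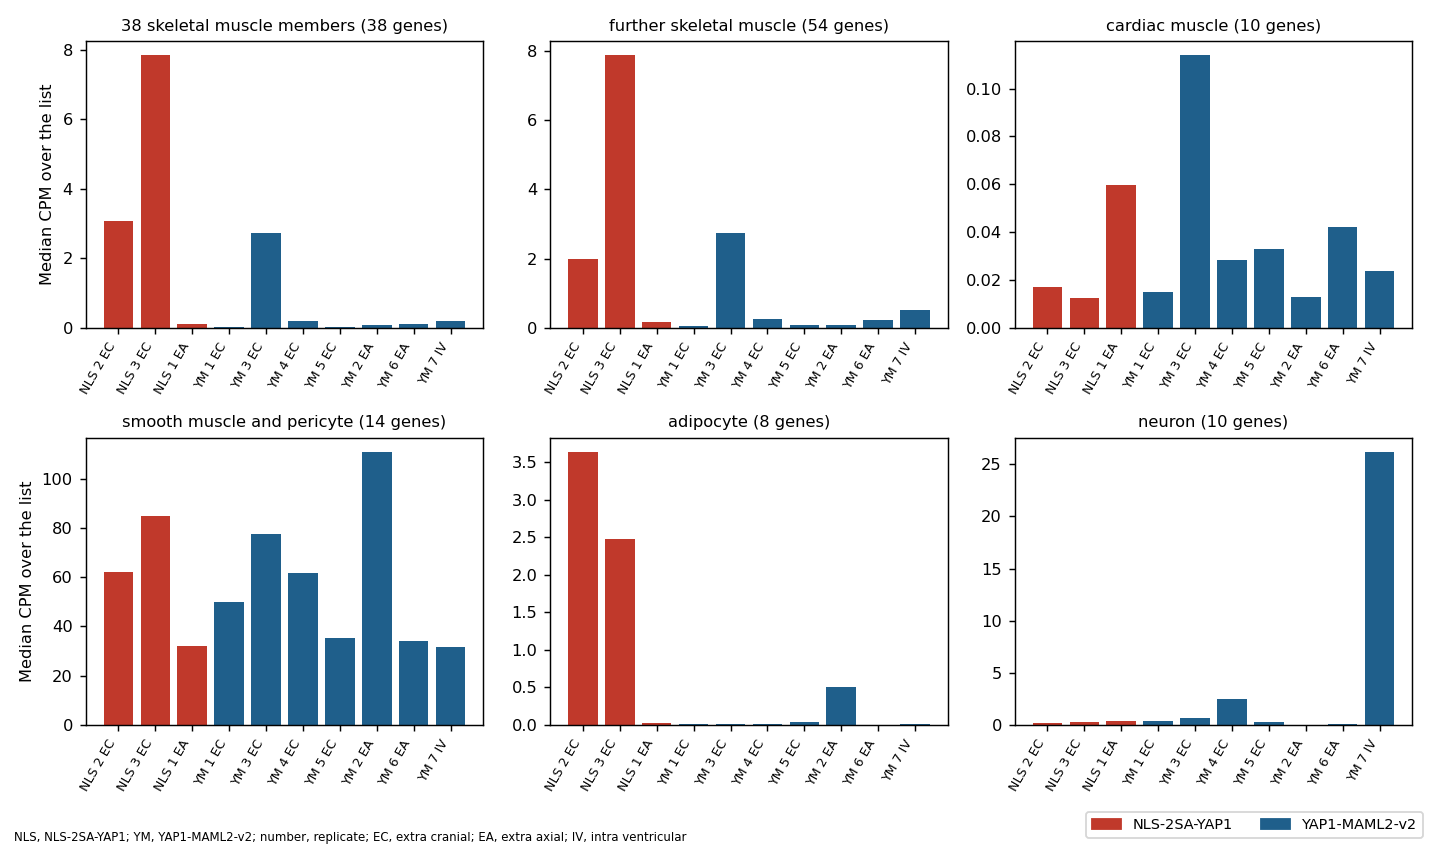
Median CPM over the 38 members and over 5 other gene lists in each tumor library, with NLS-2SA-YAP1 bars at the left and YAP1-MAML2-v2 bars at the right. Each panel has its own scale, and the skeletal muscle panels peak in the same 3 tumors, the adipocyte panel in NLS-2SA-YAP1 tumors 2 and 3 and the neuron panel in the intra ventricular tumor at 26.2 CPM.

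NLS-2SA-YAP1 tumors were then compared with YAP1-MAML2-v2 tumors, with region as a term, by the quasi-likelihood test of edgeR over all genes. Of the 29 members tested 0 passed an adjusted p of 0.05, and over all 13707 genes 2 did, or 0.0146%. At an unadjusted p of 0.05, 3 members were higher in NLS-2SA-YAP1 tumors (PVALB, DES and ACTN3) and 0 lower. Of all genes 5.44% were higher and 7.61% lower. ACTN3 passed the filter through the 3 high tumors, which include NLS-2SA-YAP1 tumors 2 and 3. PVALB is listed at 0 in 3 YAP1-MAML2-v2 tumors. Nothing is therefore read from these 3 members against all genes. DESeq2 called 1 member, DES (higher in NLS-2SA-YAP1 tumors, DESeq2 adjusted p = 0.0272), against 5.0% of all genes. With edgeR DES had an adjusted p of 0.254, and it is listed at 1 in 2 YAP1-MAML2-v2 tumors, so no size is given. The limma-voom test with quality weights called 0 members, against 0.671% of all genes.

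Most fitted differences were positive without passing the test. They were above 0 for 25 of the 29 members and for 48.4% of all genes, and the median log2 fold change was 1.97 over the 29 members and -0.03 over all genes. That median was 1.16 over 29 members without NLS-2SA-YAP1 tumor 3 and 2.98 over 22 members without YAP1-MAML2-v2 tumor 3, when the other 7 no longer passed the filter. Several members passed the filter only through the 3 high tumors, so the count and the medians are a description and nothing is read from them against all genes. None of the 29 members separated the groups without overlap, which 6.73% of all genes did. The 3 high tumors include both constructs and leave out NLS-2SA-YAP1 tumor 1. Members that passed the filter only through them could therefore not separate the groups, and nothing is read from this share. Among members never listed at 0 or 1, ACTN3 had a log2 fold change of 3.59 (SE 1.31, edgeR adjusted p = 0.302) and TNNT3 one of 2.84 (SE 1.75, edgeR adjusted p = 0.525). The size for ACTN3 depends on low values, at most 5 in the files outside the 3 high tumors. Without YAP1-MAML2-v2 tumor 3, ACTN3 no longer passed the filter. The log2 fold change of TNNT3 was 6.81 without YAP1-MAML2-v2 tumor 3 and 1.48 without NLS-2SA-YAP1 tumor 3.

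The broader genes showed smaller differences or the opposite sign. RYR1 had a log2 fold change of 1.4 (SE 0.81, edgeR adjusted p = 0.495), which was -0.04 without NLS-2SA-YAP1 tumor 3. TPM2 had 0.74 (SE 0.63, edgeR adjusted p = 0.666), and 0.0 without that tumor. NEB had -1.53 (SE 1.32, edgeR adjusted p = 0.675), -3.27 without NLS-2SA-YAP1 tumor 3 and -0.57 without NLS-2SA-YAP1 tumor 1. MYH3 had -1.21 (SE 0.73, edgeR adjusted p = 0.51), and TNNC1 had -0.38 (SE 1.26, edgeR adjusted p = 0.939), which changed sign without YAP1-MAML2-v2 tumor 4 or 2. None of these differences passed an edgeR adjusted p of 0.05.

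Extra axial tumors were compared with extra cranial ones in the same fit. With edgeR 0 of the 29 members and 0 of all 13707 genes (0%) passed an adjusted p of 0.05. At an unadjusted p of 0.05, 8 members were lower in extra axial tumors (ACTN2, PVALB, CKM, MYH2, TNNT3, MYL1, MYBPC1 and MB), and 0 were higher, where 2.0% of all genes were lower. CKM, MYH2, MYL1 and MB passed the filter on low values through the 3 high tumors, all extra cranial, and have at most 2, 1, 7 and 2 in the files in the other 7 tumors. They had to differ in this direction, so nothing is read from the 8 against all genes. DESeq2 and limma-voom called 0 members, against 0.226% and 0% of all genes. The fitted difference was below 0 for 26 of the 29, with a median of -2.12 over these 29 and -0.01 over all genes, and above 0 for 49.4% of all genes, and this too is a description. Without YAP1-MAML2-v2 tumor 3 the median was -0.96 over the 22 members that then passed the filter, and within YAP1-MAML2-v2 tumors alone it was -0.11 over 9, so the members behind the median changed as well.

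The levels show what the region difference holds. TNNT3 had 0.359, 0.315 and 0.927 CPM in the extra axial tumors (NLS-2SA-YAP1 tumor 1 and YAP1-MAML2-v2 tumors 2 and 6), against 0.33 (lowest), 21.4 (median) and 222 CPM (highest) in extra cranial tumors. No extra axial tumor was high, and 3 of 6 extra cranial tumors were as low as they were. The fitted log2 fold change of TNNT3 was -5.08 (SE 2.14, edgeR adjusted p = 1.0), and -1.13 without YAP1-MAML2-v2 tumor 3. By CPM, CKM and MB were the members without overlap between the regions, at 2 of 29 tested against 0.89% of all genes. They separate only by library scaling, so nothing is read from this share. In the files both are at 1 in extra axial NLS-2SA-YAP1 tumor 1 and in extra cranial YAP1-MAML2-v2 tumors 1 and 5. TTN had a difference of -1.95 (SE 1.6, edgeR adjusted p = 1.0), which was 0.44 without YAP1-MAML2-v2 tumor 3. With 1 extra axial NLS-2SA-YAP1 tumor and both high NLS-2SA-YAP1 tumors extra cranial, construct and region are only partly separable in that group.

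**Figure D5:**
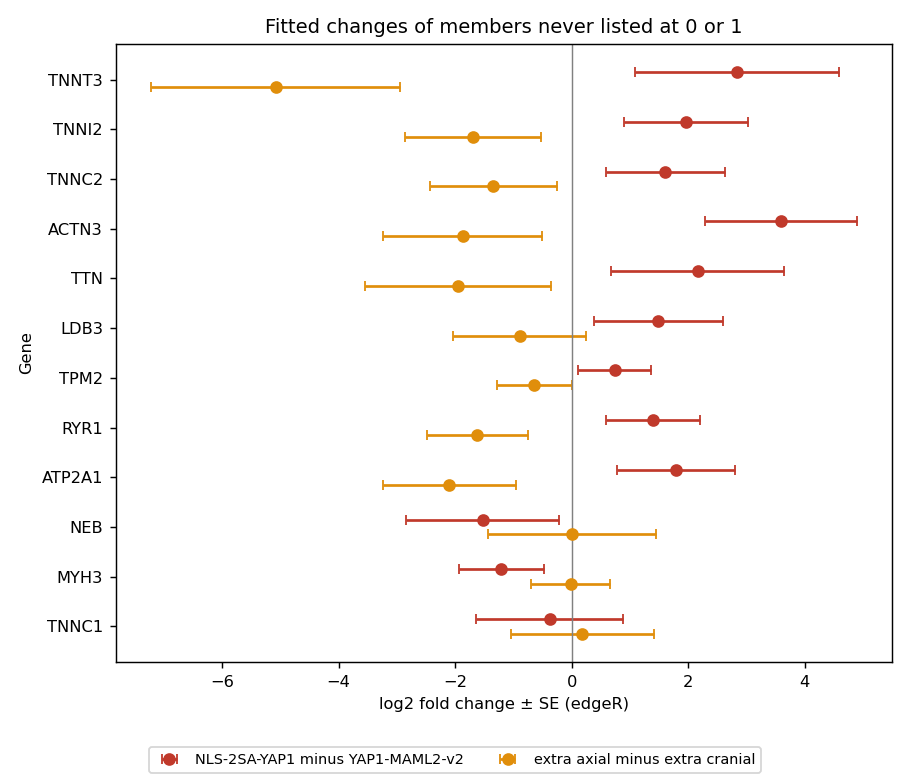
Fitted log2 fold changes of the 12 members never listed at 0 or 1, with bars for the SE (edgeR), for NLS-2SA-YAP1 minus YAP1-MAML2-v2 (red, upper of each pair) and extra axial minus extra cranial (orange, lower). Point estimates lie above 0 for the construct and below 0 for the region in 9 of the 12, while NEB, MYH3 and TNNC1 lie below 0 for the construct and at 0.0, -0.02 and 0.18 for the region. None passed an adjusted p of 0.05.

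Whether the region difference depends on the construct was tested by an interaction over 9 tumors, without the intra ventricular one. With edgeR 0 of 29 members passed an adjusted p of 0.05, against 1 of 13487 genes (0.00741%), and NEB and ACTN3 were lower at an unadjusted p of 0.05, against 3.55% of all genes. The fitted interaction was below 0 for 24 of the 29 members, and above 0 for 48.8% of all genes. Because several members passed the filter on low values only through the high extra cranial tumors, this count and that of NEB and ACTN3 are a description. Nothing is read from them against all genes. DESeq2 called NEB (log2 scale -7.41, SE 1.52, DESeq2 adjusted p = 0.000569), against 1.51% of all genes. NEB had 0.287 CPM in the extra axial NLS-2SA-YAP1 tumor, against 9.7 and 40.9 CPM in the extra cranial ones, and 66.8 and 79.6 CPM in the extra axial YAP1-MAML2-v2 tumors, against 8.17 to 70.2 CPM in the extra cranial ones. The NEB value thus rests on 1 extra axial NLS-2SA-YAP1 tumor, and with edgeR its adjusted p was 0.658.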

How the data were processed

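RNA-seq libraries of 10 mouse tumors were analysed from the values the authors deposited per gene. Per the submitters' processing notes HTSeq and the mm10 build were used. The aligner, versions, annotation and strand setting were not given in the sources used here, so reads of overlapping and antisense genes may not be separable. The deposited values are whole, but their excess of 1 over 2 does not look like raw reads, so they were treated as estimated counts, without rounding. The plan had assumed raw counts; the count test was kept, and limma was an alternative. Depth is unknown, so no counting intervals are given.

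Genes were filtered with filterByExpr (minimum count 10) and scaled by TMM. The quasi-likelihood test of edgeR 4.0.16 (R 4.3.3) was fitted over all genes with construct and region as terms, with Benjamini-Hochberg adjustment over all genes tested and a threshold of 0.05. DESeq2 1.42.0 and limma 3.58.1, other scalings and filters, single strata, a replicate block and leaving out each library were alternatives. The steps were tested on simulated data. Exon lengths came from GENCODE M21 (15475 of 16895 symbols matched) and promoters from RefSeq (GRCm38.p6).

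Of the 38 members 29 passed the filter. MYH1, MYH4, MYH8, CACNA1S and the 5 myogenic factors did not. Members and lists were chosen with earlier results of these data known. Values per library are given for the 3 tested members of each role with the highest mean CPM and for all myogenic factors, and other genes were named after their values were seen. The thresholds for genes shared by 3 tumors, 4-fold and 0.3 CPM, were also set after the values were seen. The lists beside the members hold 145 genes, of which 142 are in the files. No library pair was identical, and the correlation of log2 CPM between libraries was 0.659 to 0.915.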

Additional observations from a re-analysis of the deposited data

Results flagged for a closer look

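Within the 7 YAP1-MAML2-v2 tumors, 1 tumor stood apart from the others in log2 CPM (Dixon's test on the gap to the nearest tumor) for 19 members. The tumor was YAP1-MAML2-v2 tumor 3, at the high end, for 18 of them. Its log2 CPM was 5.4 for TNNT3, 3.6 for MYL1, 1.75 for MYH2, 0.34 for TNNI2, -0.77 for MYLPF, -0.83 for ACTN3 and -2.68 for MYH1 and MYH8. It was 1.67 for ACTA1, 1.95 for ATP2A1, -0.39 for CASQ1, 1.69 for MB and -0.54 for CKM. Among the transcription factors it was -2.46 for MYOG, -2.94 for MYF6 and -3.64 for MYOD1, MYF5 and PAX7, all of them values next to 0 in the files. The remaining member was CACNA1S, for which the intra ventricular tumor, YAP1-MAML2-v2 tumor 7, was the highest at -0.39. Chance flags about 1 in 20 groups, and 15 of the 19 members are listed at 0 or 1 in at least 1 tumor of the group, where the gap depends on those values.

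MYH7 was at 27.0 CPM in the intra ventricular tumor, a region with 1 library and no test, and at most 3.68 CPM in the other 9 tumors. Of the cardiac list, RYR2, which neurons also make, was at 22.7 CPM, MYBPC3 at 1.02 and MYH6 at 0.758 CPM in that tumor. Each was the highest of the 10 tumors, MYH6 narrowly above 0.658 CPM in YAP1-MAML2-v2 tumor 3. MYL7 and NPPA were listed at 0 in the intra ventricular tumor, and TNNT2 was at 5.21 CPM, against 479 CPM in YAP1-MAML2-v2 tumor 2. TNNI3 (0.0237 CPM) and TNNC1, of slow fibers and the heart (2.75 CPM), had their lowest values of the 10 tumors in the intra ventricular tumor. The neuron list had its highest median there, 26.2 CPM. The parts of heart and nervous tissue in the MYH7 value were not tested.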

How the results depend on the processing

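Under every alternative run, the construct and region medians of the members kept their sign. Several members passed the filter only through the 3 high tumors, all extra cranial, so the kept sign is a description. The count of members past the edgeR threshold stayed at 0 except with DESeq2. DESeq2 called 1 member between constructs (DES) and 1 in the interaction (NEB). The construct median was 3.78 with limma-voom and quality weights, against 1.97 with edgeR; it was 1.16 to 2.98 when each library was left out. The region median was -2.77 to -0.96 when each library was left out, and -0.11 within YAP1-MAML2-v2 tumors alone. In each of these fits 0 members passed. The members behind a median were 29 except without YAP1-MAML2-v2 tumor 3 (22), within YAP1-MAML2-v2 alone (9), without NLS-2SA-YAP1 tumor 1 or 2 (30) and without the filter (38). TNNC1 changed sign between constructs with limma on log2 CPM (1.09), with limma-voom (1.53) and under the replicate block (1.92), and had -0.63 to 1.54 over the libraries left out (0.27 without YAP1-MAML2-v2 tumor 2, 1.54 without YAP1-MAML2-v2 tumor 4). RYR1 had -0.04 to 2.12 and TTN between regions -3.32 to 0.44. The cause was not tested. With replicate number as a block, over the libraries numbered 1 to 3, the medians were 2.24 between constructs and -1.65 between regions and 0 members passed; same-numbered libraries correlated in their deviations at 0.167, 0.337 and -0.072, so the numbers were not taken as pairs. The interaction could not be fitted without NLS-2SA-YAP1 tumor 1. The count of 29 members with the same 3 tumors on top was the same with DESeq2 size factors, with library totals and per kilobase. Unknown depth and values of 0 and 1 limit what the low members show.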

Other observations

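Genes outside the lists shared the pattern as well. Over all 16895 genes, 36 were above 0.3 CPM in NLS-2SA-YAP1 tumors 2 and 3 and YAP1-MAML2-v2 tumor 3, and in each of these tumors more than 4 times the highest of the other 7. They comprised 15 of the 38 members, 12 further skeletal muscle genes and 9 genes on no list (ANKRD2, ANO5, ART1, LSMEM1, MYLK2, SAA1, SYNPO2L, SYPL2 and YIPF7). The genes were chosen on these values, so this is a description with no test. ANO5, a membrane protein whose loss causes limb girdle muscular dystrophy in people, had 33.3 and 88.6 CPM in NLS-2SA-YAP1 tumors 2 and 3 and 37.9 CPM in YAP1-MAML2-v2 tumor 3, against at most 0.0239 CPM in the other tumors. MYLK2, the myosin light chain kinase of skeletal muscle, had 0.478 and 2.41 CPM in NLS-2SA-YAP1 tumors 2 and 3 and 0.506 CPM in YAP1-MAML2-v2 tumor 3. SAA1, an acute phase protein, had 12 and 1.13 CPM in NLS-2SA-YAP1 tumors 2 and 3 and 0.405 CPM in YAP1-MAML2-v2 tumor 3.

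The fast myosin heavy chains also stood in unequal ratios in these 3 tumors. Per kilobase of exon the ratio of MYH2 (type 2A) to MYH1 (type 2X) was 2.97 and 1.67 in NLS-2SA-YAP1 tumors 2 and 3 and 29.2 in YAP1-MAML2-v2 tumor 3, where MYH1 was at 0.101 CPM. These genes have similar coding sequences, so the ratios are uncertain. Slow over fast myosin binding protein C (MYBPC1 over MYBPC2) was 0.717 and 0.635 in NLS-2SA-YAP1 tumors 2 and 3 and 1.51 in YAP1-MAML2-v2 tumor 3. The ratio of MB to CKM was 5.47 and 1.94 in NLS-2SA-YAP1 tumors 2 and 3 and 9.76 in YAP1-MAML2-v2 tumor 3. In all 3 ratios YAP1-MAML2-v2 tumor 3 had the highest value of the 3 tumors and NLS-2SA-YAP1 tumor 3 the lowest, each with 1 tumor per value and no test.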
